A study of Caenorhabditis elegans with 2 samples.

Results

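The 58 genes described here encode nuclear subunits and assembly factors of the mitochondrial respiratory chain and ATP synthase (38 genes) and subunits of the vacuolar proton ATPase (V-ATPase, 20 genes) of Caenorhabditis elegans. They were taken from the 19973 nuclear protein-coding genes of the annotation by name: every symbol built from nuo, cox, atp, cyc, ucr or vha and a number, together with sdha-1, sdhb-1, isp-1 and gas-1. The name pattern leaves out genes of the same complexes with other names, and these are described near the end as a separate list. The 12 protein-coding genes of the mitochondrial genome were left out, since the peak lists hold no mitochondrial peak.

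The respiratory chain passes electrons from NADH and succinate through complexes I to IV to oxygen and pumps protons across the inner mitochondrial membrane, and ATP synthase makes ATP as the protons return. The V-ATPase runs the other way: its V1 head hydrolyses ATP and its V0 membrane sector pumps protons into lysosomes and other compartments, or out of the cell in some epithelia. Newly hatched larvae kept without food arrest in the first larval stage (L1) and live on stored reserves.

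Chromatin immunoprecipitation with sequencing (ChIP-seq) was used to locate the tagged homeodomain protein CEH-63, known from the DVC interneuron, on the genome. Both libraries are biological replicates of 1 group, so the study has no contrast between conditions. The animals were whole L1 larvae of mixed sexes, 6 hours old, starved after bleaching, of the strain OP742. Its transgene wgIs742 holds C02F12.10::TY1::EGFP::3xFLAG together with unc-119(+), and the line carries the unc-119 allele tm4063; C02F12.10 is the sequence name of ceh-63. Both replicates carry the tagged transgene, the unc-119(+) copy and the unc-119 mutation. The immunoprecipitation used an anti-GFP antibody, although the antibody field itself names ceh-63. All animals come from 1 transgenic line, and chromatin of whole larvae mixes cells with and without the tagged protein. A control library is not analysed here.

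The authors deposited 4 peak lists: 30000 peaks called in each replicate, 30000 called on both replicates pooled, and a short list passing a reproducibility threshold (irreproducible discovery rate, IDR). The reproducible peaks are the highest-ranked 1.6% of the pooled list, interval for interval, and the last of their ranks is called the cut-off rank below. Peaks were ranked within each list by the authors' signal value, with rank 1 for the highest, and a gene was given the best-ranked peak with its summit within 1000 bp of any annotated start. Most of the 30000 pooled peaks are weak: the signal falls from 486.4 at rank 1 to 111.6 at the last reproducible peak, and only 194 pooled peaks have a q-value of 0.05 or less. A peak near a start records a position and shows neither binding by CEH-63 nor an effect on the gene. Many annotated starts of C. elegans genes are sites of trans-splicing rather than of transcription initiation. No count of reads comes with the lists, so the depth behind each value is unknown.

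Of the 58 genes, 3 had a reproducible peak near a start (5.17%, Wilson 95% interval 1.77 to 14.1), against 331 of 19973 protein-coding genes (1.66%). They were cox-5A, a nuclear-encoded subunit of complex IV; atp-1, the alpha subunit of the catalytic head of ATP synthase; and vha-2, a proteolipid of the V0 ring that carries protons through the membrane. Respiratory genes accounted for 2 of 38 (5.26%, 1.46 to 17.3) and V-ATPase genes for 1 of 20 (5%, 0.888 to 23.6). These intervals cover the counting of genes only, overlap almost wholly, and at 3 genes leave the share loosely fixed. Replicate 2 alone, with as many top-ranked peaks, gave 2 respiratory genes and 0 V-ATPase genes, and replicate 1 alone gave 4 and 2. The sequence at vha-2 is printed next, because the summit of its peak lies in the coding part of the gene.

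At vha-2 the bases chrIII:9782165-9782432, plus strand, on ce11 (WBcel235, sequence from RefSeq), from the window of 300 bases centred on the summit, are shown from the start codon, in capitals, to the end of the window, without the bases before it.
vha-2: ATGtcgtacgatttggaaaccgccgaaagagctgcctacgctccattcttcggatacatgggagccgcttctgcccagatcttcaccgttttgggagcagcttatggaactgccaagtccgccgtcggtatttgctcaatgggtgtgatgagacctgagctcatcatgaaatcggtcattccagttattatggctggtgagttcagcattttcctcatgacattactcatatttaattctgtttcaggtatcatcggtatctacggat

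The vha-2 stretch has a GC content of 47%. None of the 265 words of 36 bases in the full 300-base window at vha-2, or in that at cox-5A, atp-1, cox-6B, vha-1 or cox-5B, occurs anywhere else in the genome.

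cox-5A (WBGene00012553, III:12905491-12906619, plus strand) had the strongest peak of the set. In the pooled list the peak ranked 81 with a signal of 184.1 and a q-value of 0.0435. It ranked 138 in replicate 1 (signal 73.6) and 58 in replicate 2 (signal 115.5), and signals of different lists are not on a shared scale. The replicate summits lay 19 and 1 bp from the pooled summit, so both replicates placed a strong peak at the same point. The summit lies 263 bp upstream of the start in intergenic DNA, and no other annotated start lies within 1000 bp, pseudogenes left aside. A second, weaker pooled peak of rank 1891 lies 592 bp downstream of the start.

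atp-1 (WBGene00010419) lies on chromosome I from 12652277 to 12654655, on the plus strand. Its pooled peak, from 12652091 to 12652460, ranked 166 with a signal of 148.5 and a q-value of 0.0393, and its summit falls 1 bp upstream of the start. The peak ranked 196 in replicate 1 and 274 in replicate 2. Both ranks are within the cut-off rank, as at cox-5A, and no other gene of the set had this in both replicates (2 of 58, 3.45%, against 0.926% of protein-coding genes). The start of mcrs-1, on the opposite strand, is 189 bp from the summit, and that of the piRNA gene 21ur-12279 is 109 bp from it. The peak therefore cannot be assigned to atp-1 alone by position, although its start is the nearest.

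vha-2 (WBGene00006911, III:9782164-9783224, plus strand) held the weakest of the 3 reproducible peaks. The pooled peak III:9782098-9782467 ranked 443 with a signal of 113.5 and a q-value of 0.351, and its summit is 119 bp downstream of the start in coding sequence. At this site replicate 1 had a peak of rank 152 (signal 71.8) and replicate 2 a peak of rank 5010 (signal 40.8). The site is thus high in replicate 1 and not in replicate 2, whose best peak near the vha-2 start is another one, of rank 562, at 566 bp upstream. That peak lies within the neighbouring gene vha-1, which encodes another proteolipid of the V0 ring. The other start within 1000 bp of the vha-2 summit is that of R10E11.6, at 723 bp.

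Just outside the reproducible list, with signals of 111.0 and 108.4 against the last listed value of 111.6, were cox-6B and vha-1. vha-1 (III:9781254-9781763) had its peak III:9781372-9781741 at pooled rank 541, 303 bp downstream of the start in coding sequence, with rank 268 in replicate 1 and 562 in replicate 2. The same peak lies 607 bp upstream of vha-2, so each of these neighbouring proteolipid genes has the summit of a pooled peak in its coding sequence, with pooled q-values of 0.351 at vha-2 and 0.445 at vha-1. cox-6B (III:2699663-2786859), a complex IV subunit, had the peak III:2785676-2786045 at rank 488, with rank 372 in replicate 1 and 1436 in replicate 2. That summit is 341 bp upstream of the second annotated start of cox-6B but only 38 bp from the start of Y71H2AM.20, and nduc-2, a complex I gene, starts 991 bp from it.

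**Figure D1:**
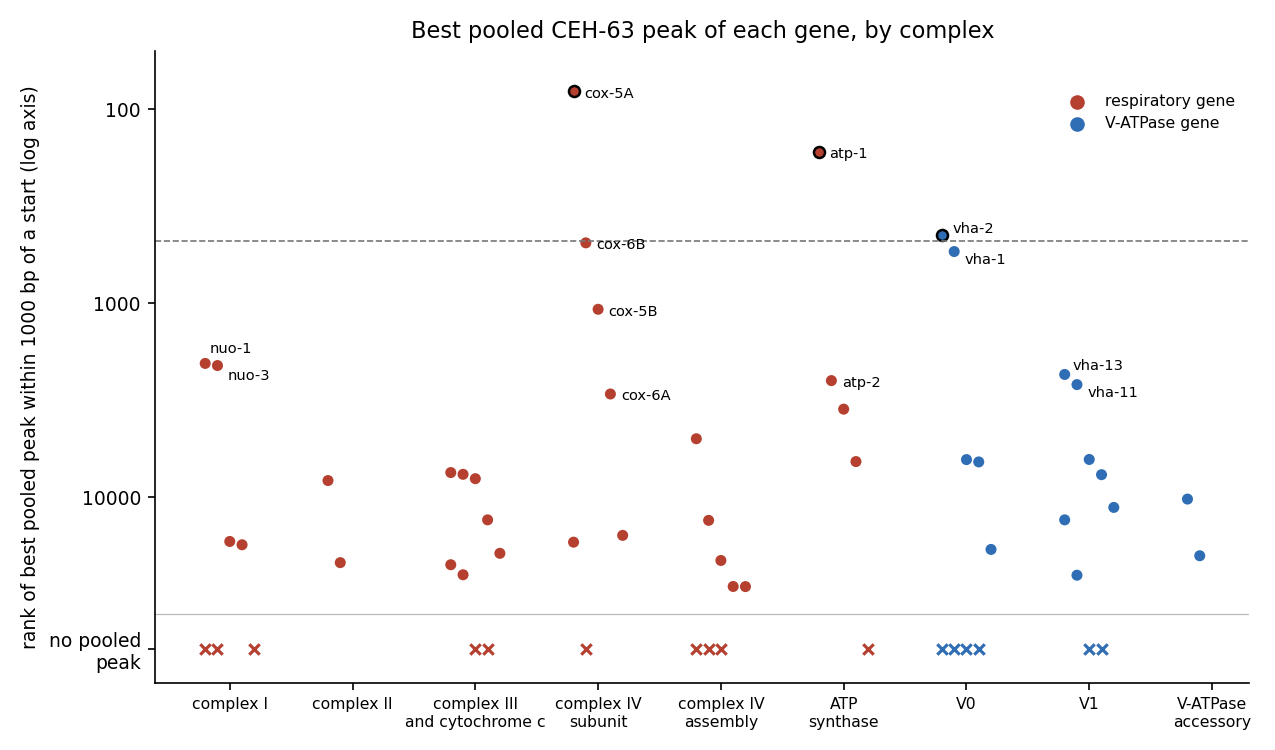
Rank of the best pooled peak within 1000 bp of a start (log axis, strongest at the top) for each of the 58 genes, grouped by complex; red points are respiratory genes, blue points V-ATPase genes, crosses genes with no pooled peak, and black rings genes with a reproducible peak. The dashed line is the cut-off rank, above which only cox-5A (81), atp-1 (166) and vha-2 (443) lie.

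With the whole pooled list, 42 of the 58 genes had a peak near a start (72.4%, 59.8 to 82.2), against 53.3% of protein-coding genes. The respiratory genes had 28 of 38 (73.7%, 58.0 to 85.0) and the V-ATPase genes 14 of 20 (70%, 48.1 to 85.5), so the intervals overlapped. A peak in the pooled list and in both replicate lists, at the same site or at different sites near a start, was found for 33 genes (56.9%, against 34.1%). Counting genes with no pooled peak as ranked beyond the list, the median best rank was 16913.5 for respiratory genes, 12144 for V-ATPase genes and 27388 for all protein-coding genes. The 95% intervals of these medians ran from 7596 to 25000 for the respiratory genes, from 6380 to beyond the end of the list for the V-ATPase genes, and from 26917 to 27940 for all protein-coding genes. Respiratory and V-ATPase genes were not separated by this measure. All 3 medians depend on the distance allowed: within 2000 bp they were 8000 for respiratory genes, 7686.5 for V-ATPase genes and 15709 for all protein-coding genes, and within 500 bp the first 2 were 29175 and 27567.5.

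A pooled peak ranked in the first 1000 was present at 5 of the 58 genes (8.62%, against 3.18%), and one in the first 5000 at 14 (24.1%, against 12.4%). Ribosomal protein genes, taken by name as a comparison, had larger shares: 15 of 78 had a reproducible peak (19.2%, 12.0 to 29.3) and 65 had a pooled peak (83.3%). Proteasome subunit genes had a reproducible peak at 1 of 33 (3.03%) and a pooled peak at 26 (78.8%). No test was made between these gene sets.

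**Figure D2:**
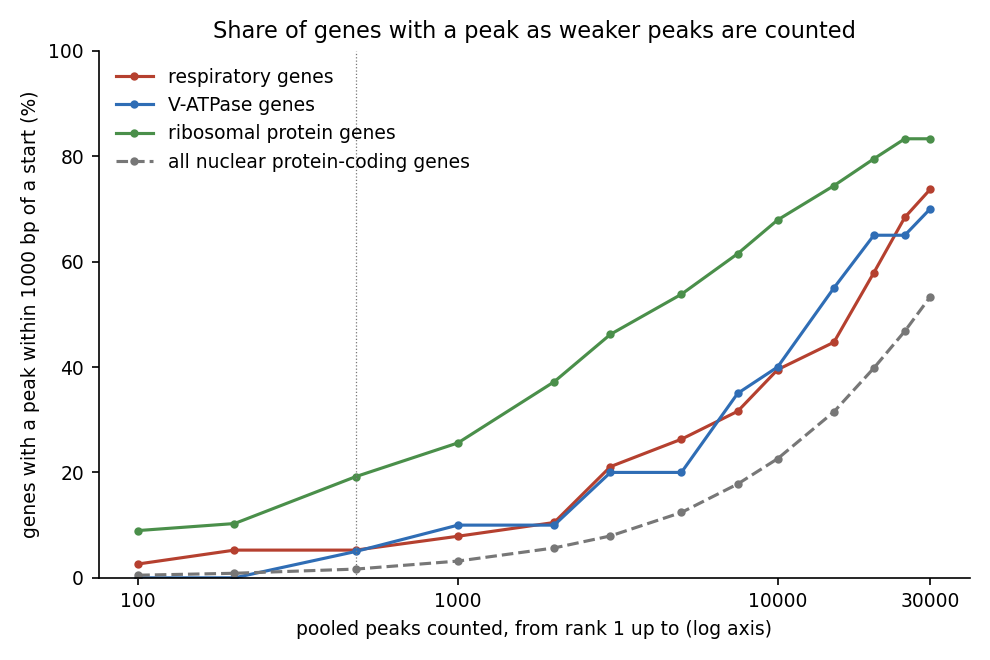
Share of genes (%) with a peak near a start among pooled peaks up to each rank (log axis), for respiratory genes, V-ATPase genes, ribosomal protein genes and all nuclear protein-coding genes. At rank 5000 the shares are 26.3% for respiratory, 20% for V-ATPase, 53.8% for ribosomal protein and 12.4% for all genes.

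Complex I oxidises NADH and has 7 genes in the set, none with a reproducible peak (against 1.66% of protein-coding genes). A pooled peak lay near 4 of the 7 (57.1%), a share near the 53.3% of protein-coding genes. The best were nuo-1, the NADH-binding flavoprotein subunit, at rank 2039, and nuo-3, an accessory subunit, at rank 2091. The replicates differed at both: nuo-1 ranked 756 in replicate 1 and 19899 in replicate 2, while nuo-3 ranked 15322 and 1532. Neither peak has the member's own start as its nearest one, since the nuo-1 summit, 411 bp upstream, is 122 bp from the non-coding RNA gene C09H10.11, and the nuo-3 summit, 808 bp upstream, is 203 bp from arl-8. The accessory subunit nuo-6 (16844) and the core subunit nuo-2 (17519) ranked far lower, and nuo-2 had no peak in replicate 1. No pooled peak lay near nuo-4, nuo-5 or gas-1, a core subunit near the quinone site.

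Complex II, succinate dehydrogenase, had a pooled peak at both genes, against 53.3% of protein-coding genes. The iron-sulfur subunit sdhb-1 ranked 8179 and the flavoprotein subunit sdha-1 ranked 21654. The sdhb-1 summit is nearer to the start of cup-15 (82 bp) than to its own (187 bp). Complex III passes electrons from quinol to cytochrome c. A pooled peak lay near 7 of the 9 genes of complex III and cytochrome c (77.8%, against 53.3% of protein-coding genes). The best ranks were 7440 at cytochrome c gene cyc-2.1, 7596 at the core protein gene ucr-2.2 and 7998 at isp-1, the Rieske iron-sulfur protein. The cyc-2.1 summit is nearer to the start of tctn-1 (51 bp) than to its own (566 bp). Likewise, the isp-1 summit is nearer to the start of islo-1 (318 bp) than to its own (652 bp). At cyc-2.1 replicate 1 had a peak of rank 5923 and replicate 2 had none. The others were cyc-2.2 (13036), ucr-2.1 (19389), ucr-11 (22196) and ucr-2.3 (25000), and cyc-1, for cytochrome c1, and the core protein gene ucr-1 had none. None of the 18 genes of complexes I, II, III and cytochrome c had a reproducible peak, against 1.66% of protein-coding genes. This allows a share of up to 16.7% when a count of 0 is taken to allow up to 3. A share like that of the whole set was therefore not detectable with this number of genes.

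Complex IV, cytochrome c oxidase, reduces oxygen, and its 7 nuclear-encoded subunit genes had the best median rank of any class in the set (2930). This median is the rank of cox-6A, whose summit, like those at cox-6B and cox-7C, lies nearest to the start of another gene. All except cox-6C had a pooled peak (85.7%, against 53.3% of protein-coding genes). After cox-5A and cox-6B came cox-5B at rank 1073 with the summit 41 bp upstream of its start in intergenic DNA. It ranked 229 in replicate 1, whereas the best peak of replicate 2 near its start ranked 2385 and lay at another site. cox-6A ranked 2930, with its summit 792 bp upstream and 34 bp from the snRNA gene F54D8.7, and cox-7C (15668) and cox-4 (16983) ranked low. The 8 cox genes for assembly factors had a median rank of 28746: the best was the heme A synthesis gene cox-10 at 4982, and cox-18, for membrane insertion, followed at 13115. The copper chaperone gene cox-17 ranked 21103, copper insertion gene cox-11 28727 and heme A synthesis gene cox-15 28765, while cox-14, cox-16 and cox-19 had no peak in any list. The classes are small, with 7 and 8 genes, and no test of this difference was made.

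ATP synthase has 5 genes in the set, with a median rank of 3507. Beyond atp-1, the beta subunit gene atp-2 ranked 2500 (1196 in replicate 1 and 8297 in replicate 2), with its summit 422 bp downstream of the start in coding sequence. The stalk subunit gene atp-5 ranked 3507 with its summit 22 bp downstream of the start, and atp-3, for the stalk subunit OSCP, ranked 6531. The coupling factor gene atp-4 had no pooled peak. Thus the alpha and beta subunits, which alternate in the same catalytic head, differed in rank, and the beta subunit peak was not among the reproducible ones.

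The V0 sector had pooled peaks at 5 of 9 genes (55.6%), a share near the 53.3% of all protein-coding genes. Of the proteolipid ring genes, vha-2, vha-1 and vha-3 (6380, with its summit 67 bp upstream) had one and vha-4 had none in any list. The small e subunit gene vha-17 ranked 6558 and the d subunit gene vha-16 ranked 18514. None of the 3 genes for the large a subunit in the set, vha-5, vha-6 and vha-7, had a pooled peak.

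The V1 sector had pooled peaks at 7 of 9 genes (77.8%, against 53.3% of protein-coding genes). None of the 9 had a reproducible peak, against 1.66% of protein-coding genes. The Wilson interval of this count reaches 29.9%, so 9 genes are too few to show a share below that of protein-coding genes. The A subunit gene vha-13, whose product carries the catalytic site, ranked 2324 (1656 in replicate 1 and 14459 in replicate 2). The C subunit gene vha-11 ranked 2621 (12921 and 1416), so vha-13 and vha-11 each ranked better in a different replicate. The vha-11 summit is nearer to the start of the non-coding RNA gene Y38F2AL.11 (206 bp) than to its own (242 bp). The E subunit gene vha-8 (6370), the B subunit gene vha-12 (7629), the F subunit gene vha-9 (11250), the D subunit gene vha-14 (13038) and the H subunit gene vha-18 (25134) followed. The G subunit gene vha-10 and the second H subunit gene vha-15 had no pooled peak. The accessory protein genes vha-20 and vha-19 ranked 10189 and 19955.

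In all, 16 of the 58 genes had no pooled peak near a start, against 9322 of 19973 protein-coding genes, a larger share. Of these 16 genes, 8 had none in any list: nuo-5, cox-14, cox-16, cox-19, vha-4, vha-5, vha-7 and vha-15. Among the 19973 protein-coding genes 5713 had none in any list, again a larger share. The 7 genes of the set on the X chromosome had no reproducible peak, against 1.66% of protein-coding genes. By the same rule of 3 counts, 0 of 7 allows a share of up to 42.9%. A pooled peak lay near 5 of the 7 (71.4%, against 53.3% of protein-coding genes), the best at rank 7596.

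The replicates agreed in part. Each replicate list had a peak near 42 of the 58 genes (72.4%, against 53.4% of protein-coding genes in replicate 1 and 53.0% in replicate 2), and 35 genes had one in both (60.3%, against 36.3%). A peak within the cut-off rank was present at 6 genes in replicate 1 (10.3%, against 1.78% of protein-coding genes) and at 2 in replicate 2 (3.45%, against 1.62%). The 6 of replicate 1 were cox-5A, vha-2, atp-1, cox-5B, vha-1 and cox-6B, and the 2 of replicate 2 were cox-5A and atp-1. Of the 42 best pooled peaks, 25 had a summit within 200 bp in both replicates, 9 in replicate 1 only, 7 in replicate 2 only and 1, at cox-11, in neither. Over the 35 genes with a peak in both replicates the rank was better in replicate 1 at 18 and in replicate 2 at 17. Spearman's coefficient of the replicate ranks was 0.533 over these 35 genes and 0.336 over the 7258 protein-coding genes with a peak in both, given as descriptions across genes, which share the same libraries and control.

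**Figure D3:**
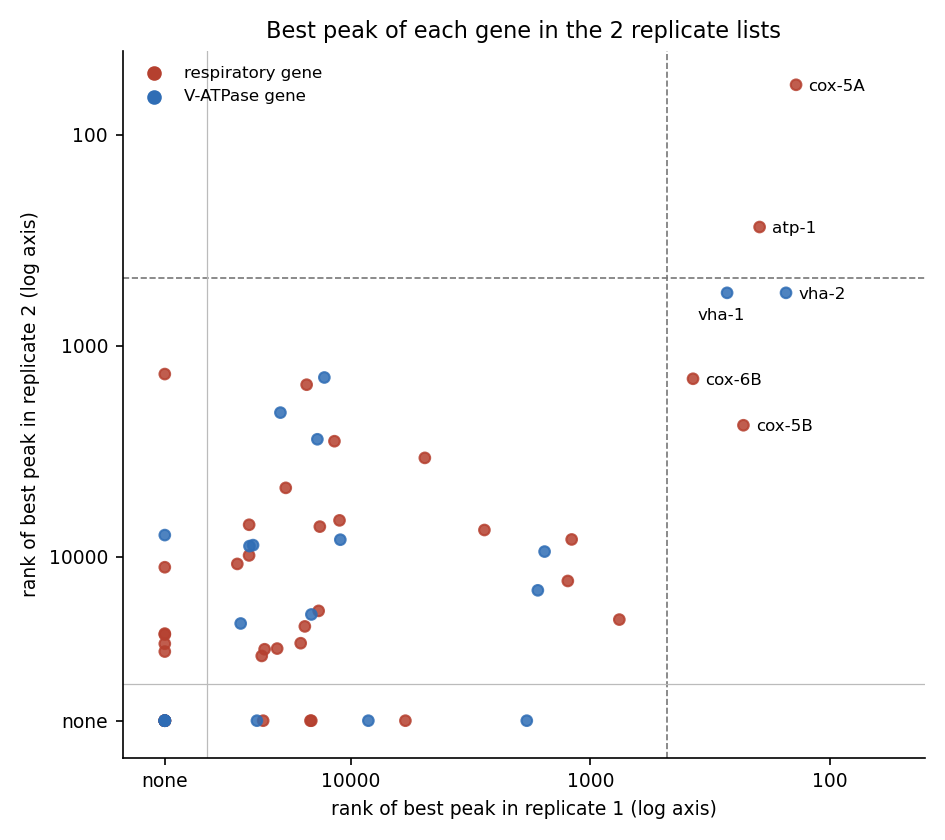
Rank of the best peak near each gene in replicate 1 (horizontal, log axis) and replicate 2 (vertical, log axis), strongest at the upper right; red points are respiratory and blue points V-ATPase genes, dashed lines mark the cut-off rank, and grey lines set off genes with no peak in a list. Only cox-5A and atp-1 lie beyond both dashed lines, while vha-2, vha-1, cox-5B and cox-6B lie beyond that of replicate 1 alone.

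The 42 best pooled peaks are 42 separate intervals. The gene's own start was the nearest gene start for 29 of them (69%, against 77.8% for protein-coding genes with a pooled peak). It was the nearest for 12 of 14 V-ATPase genes (85.7%) and for 17 of 28 respiratory genes (60.7%), so the other respiratory peaks lie closer to the start of another gene. The summit lay upstream of the start at 15 genes and downstream at 27. Among V-ATPase genes it was upstream at 2 of 14 (14.3%) and among respiratory genes at 13 of 28 (46.4%), against 48.2% of protein-coding genes with a pooled peak. The median distance from summit to start was 376.5 bp, against 450 bp.

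By annotation, 20 of the 42 summits lay in coding exons (47.6%, against 38.2% for protein-coding genes), 12 in introns (28.6%, against 24.9%) and 8 in intergenic DNA (19%, against 28.5%). The exon or intron counted can be that of any gene, not only of the member. For instance, the coding-exon summits at nuo-3, cox-10, cox-11 and cox-15 lie upstream of these genes, in exons of other genes. The remaining summits were 1 in an exon of a non-coding gene, at nuo-1, and 1 in a 3′ UTR upstream of vha-13. The summits at cox-5A, atp-1 and cox-5B were intergenic, that at cox-6B was in an intron, and those at vha-2 and vha-1 were in coding exons. Median GC content of the 300-base windows was 39.5%, against 38% for the best peaks of all protein-coding genes.

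**Figure D4:**
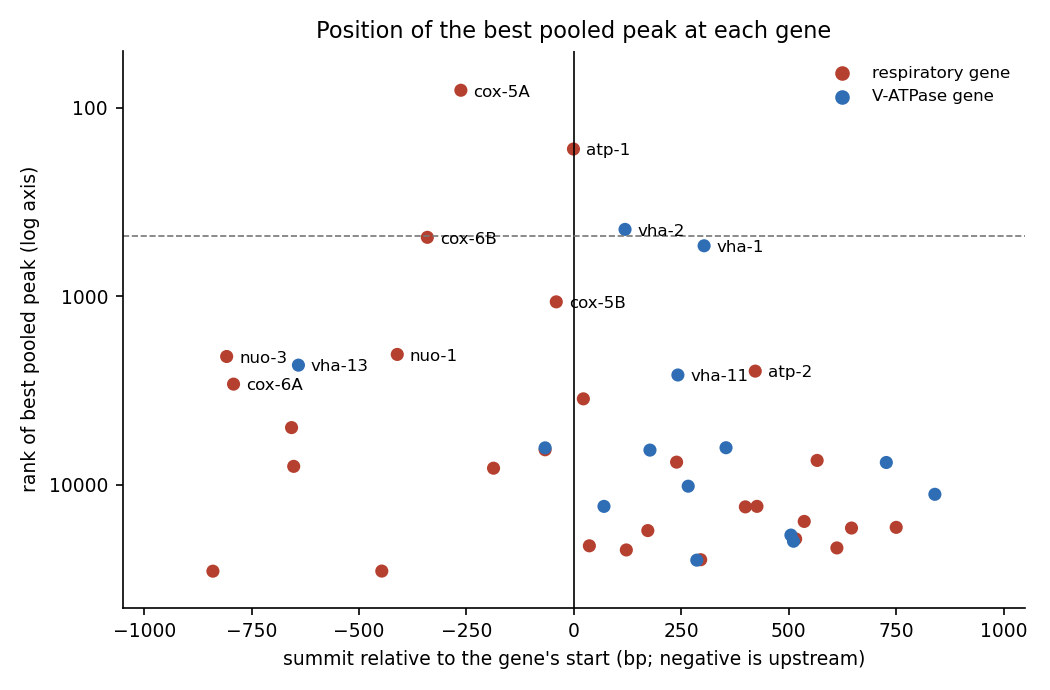
Distance of the best pooled summit from the gene's start (bp, negative is upstream) against its rank (log axis, strongest at the top) for the 42 genes with a pooled peak; red points are respiratory and blue points V-ATPase genes, and the dashed line is the cut-off rank. The 14 V-ATPase summits fall downstream of the start except at 2 genes, and cox-5A (263 bp upstream) and atp-1 (1 bp upstream) lead the respiratory genes.

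Short motifs were counted in the 300-base windows on both strands. The homeodomain core TAATTA was in 6 of the 42 windows (14.3%), against 11.8% of the best peaks of all protein-coding genes, 11.4% of all pooled peaks and 15.5% of 300-base windows at the starts of all protein-coding genes. The E-box CACGTG was in 1 window (2.38%, against 5.91%, 6.24% and 5.82% in the same order), and the GATA word TGATAA was in 7 (16.7%, against 24.2%, 23.1% and 30.2%). GAGAGA was in 12 (28.6%, against 17.8%, 18.3% and 21.8%), with 8 of 28 respiratory and 4 of 14 V-ATPase windows holding it. A match of 6 letters is a description of the sequence and not a site.

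A list of 47 other genes of these complexes and their cofactors was counted beside the set, of which 36 matched the nuclear annotation; the other 11 are genes of the mitochondrial genome. A pooled peak lay near 30 of the 36 (83.3%, against 53.3% of protein-coding genes) and a reproducible one near 2 (5.56%, 1.54 to 18.1, against 1.66%). sco-1, which delivers copper to complex IV, had the stronger of these: II:4299224-4299593, rank 71, signal 191.9, 244 bp upstream of its start, with rank 93 in replicate 1 and 85 in replicate 2. mai-1, a homologue of the inhibitor of ATP synthase, had rank 249 with its summit 127 bp downstream of its start, and rank 341 in replicate 1 and 1919 in replicate 2. Below the reproducible list, unc-32, the remaining gene for the V0 a subunit, ranked 1018 (15433 in replicate 1 and 382 in replicate 2). The ADP/ATP carrier gene ant-1.1 ranked 1027 (1076 and 8032). Like the cox-5A peak, the sco-1 peak is reproducible, upstream of the start and within the cut-off rank in both replicates. Within the set, 1 of 7 complex IV subunit genes and 0 of 8 assembly factor genes had a reproducible peak, against 1.66% of protein-coding genes. The copper genes cox-17 and cox-11 ranked 21103 and 28727. The gene start nearest to the sco-1 summit is not given here.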

How the data were processed

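The authors' peak lists were used as deposited: ChIP-seq intervals on ce11 for 2 replicates, their pool and an IDR list. Per the labels' README text, 1 control alignment served all calls. No source used here names the aligner, the caller or the IDR cut-off. The deposited signal has no stated scale and served only to rank peaks within a list. The deposited −log10 q-value was converted to q, and the deposited offset gave each summit. Starts are all transcript starts of Ensembl release 115 (WBcel235), and a peak counted for every gene with a start within 1000 bp. Shares have Wilson 95% intervals, and the limit for a count of 0 is 3 counts of the total. Peak assignment was checked on simulated peaks. Sequence came from RefSeq, and only that at vha-2 is printed. Python 3.11.15, NumPy 2.4.6, pandas 2.3.3, SciPy 1.17.1 and matplotlib 3.10.9 were used.

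The members, lists and comparisons were chosen with earlier results of these data known, so no p-value is given. Genes named were all reproducible members, the best of each class, members within the cut-off rank of a replicate, those with no pooled peak, and genes sharing or nearest to these peaks; other members are given by rank. Alternatives changed the distance, the gene assignment, the starts used, the list threshold, the replicate and the assembly factors.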

Additional observations from a re-analysis of the deposited data

How the results depend on the processing

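With starts within 500 bp, the median rank moved to 29175 for respiratory and 27567.5 for V-ATPase genes, and the share of protein-coding genes with a reproducible peak to 1.17%. Within 2000 bp that share was 2.48%, the median rank was 15709 for protein-coding, 8000 for respiratory and 7686.5 for V-ATPase genes, and 2 V-ATPase genes had a reproducible peak, since vha-1 lies 1029 bp from the vha-2 peak. With only the gene of the nearest start the protein-coding share was 1.21%. With the strongest 49.9% of the reproducible peaks no V-ATPase gene had one (0) against 0.976% of protein-coding genes, and with a q of 0.05 or less none had one (0) against 0.841%, while cox-5A and atp-1 stayed in both. From 1 replicate alone (without replicate 1, or without replicate 2), peaks within the cut-off rank of that replicate took the place of reproducible ones. These single-replicate counts passed no reproducibility threshold. They ran from 2 to 4 for respiratory genes and from 0 to 2 for V-ATPase genes. The median of protein-coding genes has no value at 500 bp, for nearest starts or for outermost starts, since most genes then have no peak. The causes were not tested, beyond what fewer peaks or starts imply. Without the assembly factors respiratory genes kept 2 reproducible and 23 pooled peaks with a median rank of 14352. No paired analysis was possible because both replicates form 1 group. The unknown read depth and the unanalysed control limit every rank.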

Other observations

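A further 19 complex I genes with ndua, ndub, nduc, ndus and nduv symbols, a list added after the annotation was seen, had a pooled peak at 12 (63.2%, against 53.3% of protein-coding genes) and a reproducible peak at 0 (against 1.66%), both near the shares over all genes. The best of them were nduc-2 at rank 488, through the peak it shares with cox-6B, and ndua-5 at rank 746, 113 bp downstream of its start, with ranks 1200 and 1491 in the replicates. ndub-3 followed at rank 1670. With starts taken within 2000 bp, the cytochrome c gene cyc-2.1 came within reach of the reproducible peak IV:4749883-4750252, of pooled rank 21 and signal 302.5, at 1056 bp upstream of its start, a stronger peak than any within 1000 bp of the 58 genes.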
